A study of Mus musculus with 10 samples.

Results

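The ligands and receptors of the ephrin, SLIT and NETRIN guidance pathways were described in mouse embryonic stem cells (mESCs) that lack either scaffold of the histone deacetylase complex MiDAC. The group comprises 37 of the 34591 genes in the expression table, chosen by name from the families: 8 ephrin ligands and 12 Eph receptors, 3 SLIT ligands and 4 ROBO receptors, 4 NETRIN ligands and 6 of their receptors. All 37 were in the table. RNA sequencing was done on a male C57/BL6 line (Bruce-4) grown in 2iL, a defined medium for naive stem cells, and on 4 lines derived from it by CRISPR/Cas9, D2A7 and D1E6 for *Dnttip1* KO and E2E8 and E2G7 for *Elmsan1* KO. Each KO line grew from a single sorted cell, so a knockout is represented by 2 clones, and whether the WT cells were sorted or cloned is not given in the sources used here. There are 2 libraries per line and 10 in all. All values are FPKM, fragments scaled by exon length and library size, after division of each library by a factor close to 1, and so can be compared between genes of different length. In bulk RNA, fewer cells that express a gene and less RNA per cell cannot be told apart.

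Ephrins are cell surface proteins, anchored by a lipid in the A class and by a transmembrane segment in the B class, and they bind Eph receptor tyrosine kinases on neighbouring cells, with signals in both directions. SLITs are secreted proteins that repel growing axons through ROBO receptors. NETRINs are secreted relatives of laminin that attract axons through DCC and its relative NEO1 and repel them through UNC5 receptors. The same families act outside the nervous system in cell sorting, migration and vessel growth.

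The libraries held between 31098269 (WT) and 86463773 (E2G7) fragments, and both WT libraries were shallower than every KO library. *Dnttip1* was at 8.45 and 8.35 FPKM in WT and at 2.58 to 4.57 FPKM in the *Dnttip1* KO libraries. *Elmsan1*, listed as *C130039O16Rik*, was at 5.73 and 5.34 FPKM in WT and still at 4.62 to 5.13 FPKM in the *Elmsan1* KO libraries, so its RNA level does not check those labels. In the *Dnttip1* KO libraries *Elmsan1* was at 7.78 to 8.67 FPKM and was called higher than in WT (log2 fold change 0.59, adjusted p = 0.00972 from limma). All 10 stem cell markers, *Pou5f1* and *Nanog* among them, were at or above 1 FPKM. Of 7 markers of neural cells, *Pax6*, *Neurod1* and *Dcx* were under 0.1 FPKM. The neural list, most of it *Tubb3*, summed to 59.5 and 66.2 FPKM in WT, 84.4 to 95.3 in *Dnttip1* KO and 51.5 to 97.5 in *Elmsan1* KO libraries. Its members did not move together: in *Dnttip1* KO mESCs *Nes* was called higher (log2 fold change 1.30, adjusted p = 0.0178 from limma) and *Map2*, listed as *Mtap2*, lower (-1.05, adjusted p = 0.00999). In *Elmsan1* KO mESCs *Nes* was also called higher (0.80, adjusted p = 0.0636 from limma) and *Map2* was not called (-0.39, adjusted p = 0.203). The endothelial list summed to 9.55 and 10.3 FPKM in WT, 5.10 to 5.44 in *Dnttip1* KO and 4.98 to 7.40 in *Elmsan1* KO libraries, with *Tek* as its only member at or above 1 FPKM and *Emcn* at 0 throughout. Of the mesendoderm markers, *T* was called lower in *Dnttip1* KO (-1.16, adjusted p = 0.0225 from limma) and *Elmsan1* KO mESCs (-0.95, adjusted p = 0.0571). In *Elmsan1* KO mESCs *Gsc* was called lower (-1.52, adjusted p = 0.00255 from limma) and *Eomes* higher (0.70, adjusted p = 0.00905). The part of these shifts in the results that follow was not tested. Genes of chromosome 8 were higher than in WT in all 4 clones, with medians of 0.35 to 0.37 on the log2 scale, and genes of chromosome 6 in D1E6 (0.42), E2E8 (0.38) and E2G7 (0.28) but not in D2A7 (-0.08). *Efnb2* and *Unc5d* lie on chromosome 8 and *Epha1* and *Ephb6* on chromosome 6.

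mESCs expressed ligands and receptors of all 3 pathways. By the mean over the 10 libraries, of which 8 are KO, 17 genes were at or above 1 FPKM, 8 between 0.1 and 1 FPKM and 12 under 0.1 FPKM. In WT alone *Epha1* and *Ephb2* were under 1 FPKM and the other 35 genes kept their class. The highest in WT were the receptor *Epha2* (28.8 FPKM), the ligand *Ntn1* (25.4), the NETRIN and RGM receptor *Neo1* (20.2) and the receptor *Epha4* (18.4). Over all 10 libraries *Epha4* was highest (29.4 FPKM), ahead of *Epha2* (25.7) and *Neo1* (20.3). The plot of the levels of all 37 genes shows this spread.

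**Figure D1:**
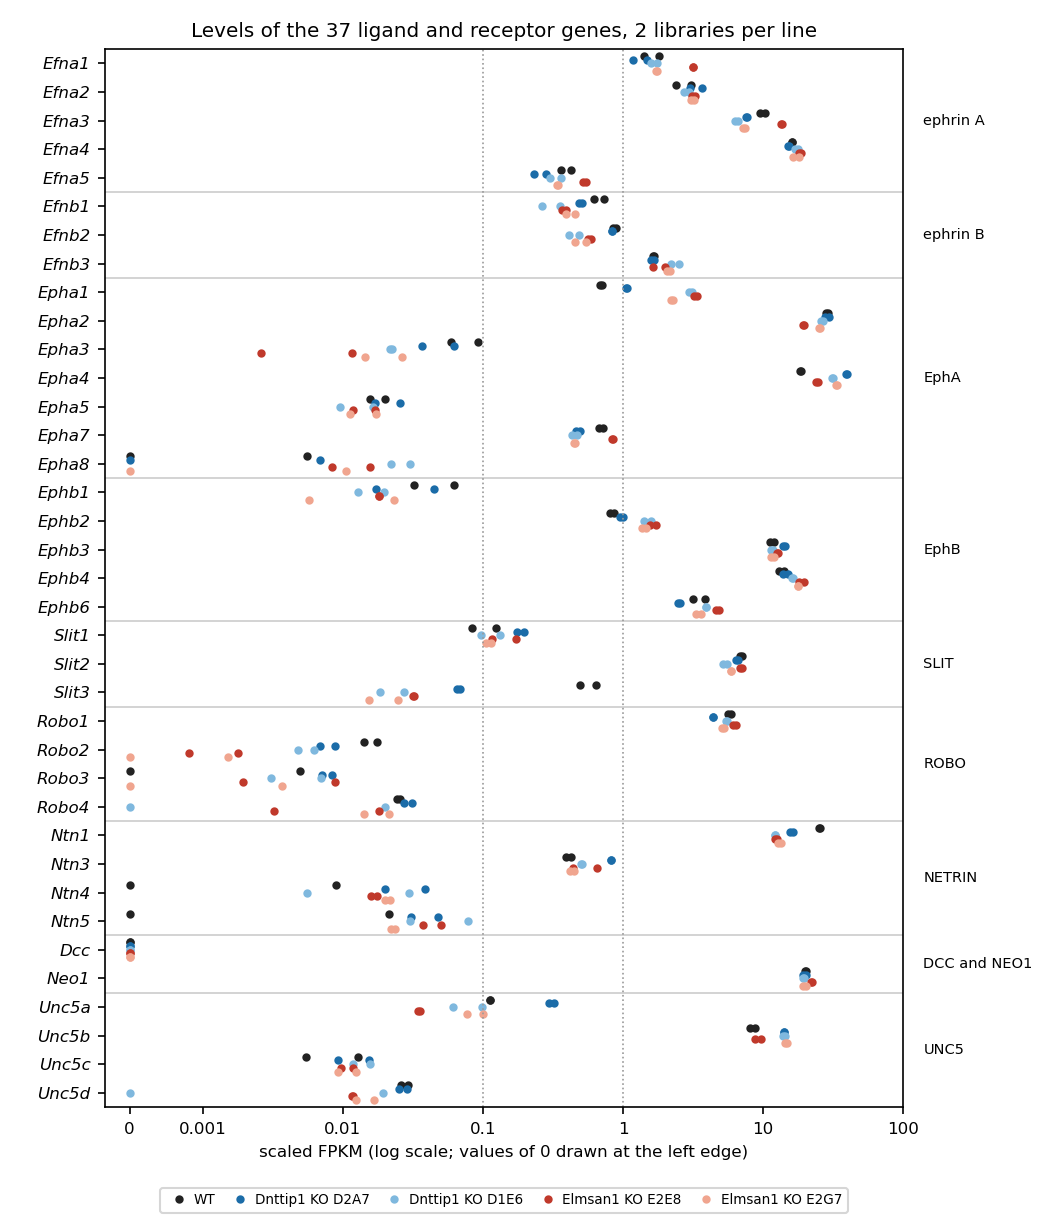
Scaled FPKM (log scale) of the 37 genes in the 10 libraries, with 2 dots per line coloured by line and dotted lines at 0.1 and 1 FPKM. *Epha4*, *Epha2* and *Neo1* are at the right, *Dcc* is at 0 in every line, and the WT dots of *Slit3* stand apart from all KO dots.

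For the secreted ligands 1 gene made up most of each family. Among them, in WT, *Slit2* held 91.3% of the summed SLIT level and *Ntn1* 98.3% of the summed NETRIN level. Their receptors were as uneven. *Robo1* held 99.3% of the ROBO sum, *Neo1* all of the sum of *Dcc* and *Neo1*, and *Unc5b* 98.3% of the UNC5 sum. The ephrin system was spread over more genes. In WT *Efna4* held 52.3% of the ephrin A sum, *Efnb3* 51.6% of the ephrin B sum and *Ephb4* 45.8% of the EphB sum. *Epha2* held 59.1% of the EphA sum in WT and *Epha4* 37.9%, while over all 10 libraries *Epha4* held 50.8%. Each sum covers only the genes in the group, such as its 7 EphA genes.

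The 12 genes under 0.1 FPKM were nearly all receptors: *Epha3*, *Epha5*, *Epha8*, *Ephb1*, *Robo2*, *Robo3*, *Robo4*, *Dcc*, *Unc5c* and *Unc5d*, with *Ntn4* and *Ntn5* as the only ligands. *Dcc*, the receptor for attraction by NETRINs, had 0 fragments in each of the 10 libraries, where 3 fragments would correspond to 0.0043 to 0.0124 FPKM. *Robo3*, the receptor that commissural axons need to cross the midline, had 18 fragments over all libraries: 1 and 0 in WT, 3 and 3 in D2A7, 1 and 3 in D1E6, 1 and 4 in E2E8, and 2 and 0 in E2G7. Its level was between 0 and 0.00871 FPKM and no difference was detectable at this depth. The counts of *Ntn5* are uncertain, since 25.9% of its exon length overlaps *Sec1* on the opposite strand and the strand setting of the counting is not given in the sources used here.

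Members at low levels had more CpG pairs before their starts than most genes at that level. CpG pairs, which cluster in the promoters of widely used and developmental genes, were counted in the 250 bases before the annotated 5′ end of each protein-coding gene (GENCODE vM1 on NCBIM37, the build of the authors' alignment). Of the 12 members under 0.1 FPKM, 9 (75.0%) had at least 10 CpG pairs there, with a median of 13, against 15.6% and a median of 2 for the 8578 protein-coding genes at that level. For the 17 members at or above 1 FPKM the share was 82.4%, against 71.7% of 10660 genes. The count ranged from 2 in *Robo4* to 46 in *Epha8*. These shares are descriptions with no test.

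The sequences before the starts of *Slit3* and *Ntn1* are shown because these ligands were lower in both knockouts. *Slit3*, on the + strand of chromosome 11, has 21 CpG pairs in chr11:34934476-34934725 before its most upstream transcript, Slit3-001, and 1, 3 and 9 before its other annotated starts, which lie inside the gene. *Ntn1*, on the - strand, has 6 in chr11:68214326-68214575 before transcript Ntn1-001 25 in chr11:68200515-68200764 before transcript Ntn1-002, whose start lies inside the gene, and 40 before a further start, whose window overlaps that of Ntn1-002. FPKM values per gene do not tell these starts apart. The sequences are from NCBIM37, read 5′ to 3′ on the strand of the gene, with CpG pairs in capitals.
Slit3-001: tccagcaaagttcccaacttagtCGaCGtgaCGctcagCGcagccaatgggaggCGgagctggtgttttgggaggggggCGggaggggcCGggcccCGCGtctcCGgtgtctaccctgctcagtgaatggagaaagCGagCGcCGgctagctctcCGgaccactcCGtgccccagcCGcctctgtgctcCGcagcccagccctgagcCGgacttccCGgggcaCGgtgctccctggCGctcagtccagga
Ntn1-001: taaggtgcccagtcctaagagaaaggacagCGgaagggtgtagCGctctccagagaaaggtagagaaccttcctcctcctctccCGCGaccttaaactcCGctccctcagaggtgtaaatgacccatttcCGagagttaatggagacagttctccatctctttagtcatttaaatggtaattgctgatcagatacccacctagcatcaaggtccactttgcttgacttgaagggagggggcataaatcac
Ntn1-002: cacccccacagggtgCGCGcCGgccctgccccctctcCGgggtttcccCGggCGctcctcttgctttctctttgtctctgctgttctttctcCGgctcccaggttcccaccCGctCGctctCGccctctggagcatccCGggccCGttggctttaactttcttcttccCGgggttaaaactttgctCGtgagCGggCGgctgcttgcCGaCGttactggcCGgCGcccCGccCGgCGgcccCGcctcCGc

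Each knockout was compared with the same 2 WT libraries, so the comparisons are not independent of each other. Of the 37 genes, 25 reached 0.1 FPKM in at least 2 libraries of the comparison and were tested with limma on log2(FPKM + 0.1). A gene was called as changed at a fold change of at least 1.5 on that scale and an unadjusted p under 0.01, and all adjusted p-values are over all genes tested. In *Dnttip1* KO mESCs, 4 of the 25 were called, *Slit3* and *Ntn1* as lower and *Epha4* and *Unc5b* as higher, beside 6.51% of all 17434 genes tested. In *Elmsan1* KO mESCs, 7 were called, *Efnb1*, *Efnb2*, *Slit3* and *Ntn1* as lower and *Epha1*, *Epha4* and *Ephb2* as higher, beside 6.43% of 17212 genes. *Slit3* is in both counts although it reached 0.1 FPKM only in its WT libraries, so its direction was fixed once it was tested. By direction, 3.25% of all genes were called lower and 3.26% higher in the former comparison, and 3.68% and 2.74% in the latter. With voom on the recovered fragments, which shifted the balance of all genes, 618 were called lower and 407 higher in *Dnttip1* KO in place of 566 and 569, and 639 and 307 in *Elmsan1* KO mESCs in place of 634 and 472. The median log2 fold change of the 25 genes was -0.04 in *Dnttip1* KO and 0.09 in *Elmsan1* KO mESCs, with medians over all genes tested of 0.02 and 0.00. The plot of fold changes shows the tested genes in both comparisons.

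**Figure D2:**
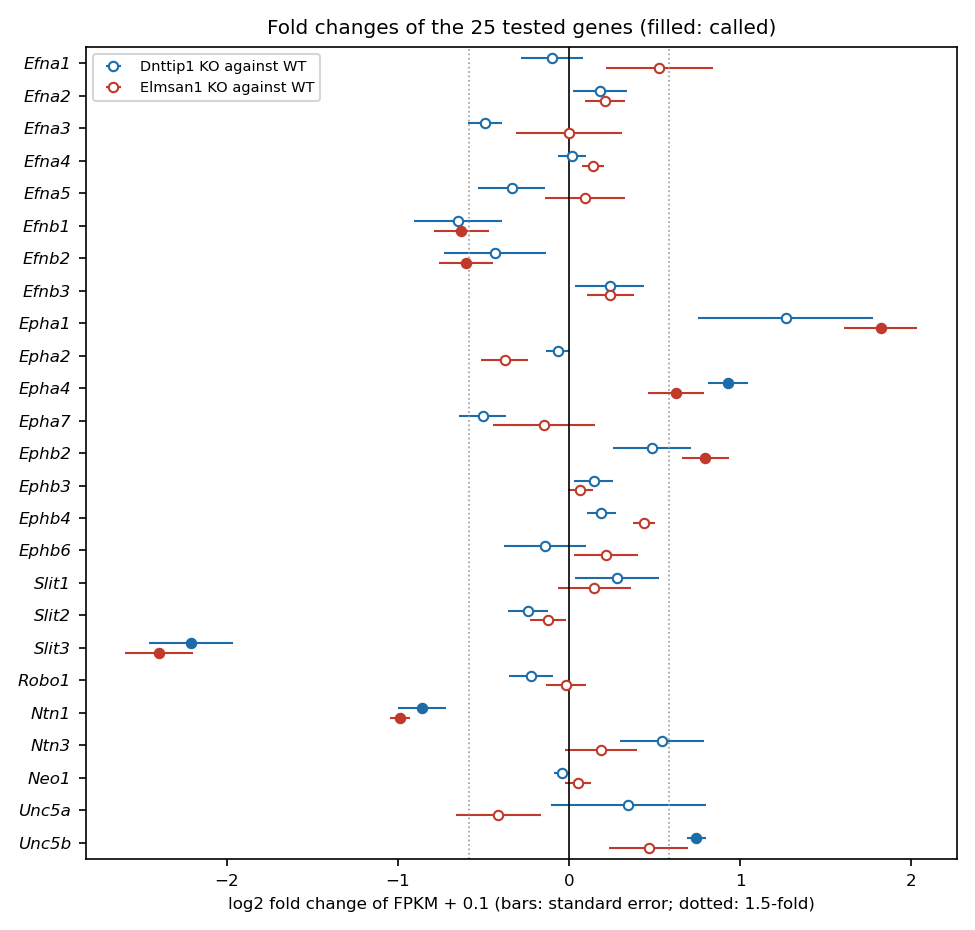
Log2 fold change of FPKM + 0.1 against WT for the 25 tested genes, with bars of 1 standard error, *Dnttip1* KO in blue (4 libraries against 2) and *Elmsan1* KO in red (4 against 2). Filled points are called, dotted lines mark a fold change of 1.5, and *Slit3* lies furthest to the left at -2.21 and -2.40.

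*Slit3* (ENSMUSG00000056427, chr11:34934726-35522009), a secreted ligand of ROBO receptors, was lower in both knockouts and had the largest fold change among the tested genes. Its level was 0.643 and 0.491 FPKM in the WT libraries, 0.0689 and 0.065 in D2A7, 0.0272 and 0.0183 in D1E6, 0.0325 and 0.0316 in E2E8, and 0.0246 and 0.0152 in E2G7. All 8 KO libraries were below both WT libraries. The fragments behind these values were 117 and 114 in WT and 7 to 26 in each KO library, although the KO libraries were deeper. The mean of 0.567 ± 0.107 FPKM (SD, n = 2) in WT compares with 0.0448 ± 0.0258 (SD, n = 4) in *Dnttip1* KO and 0.026 ± 0.00798 (SD, n = 4) in *Elmsan1* KO mESCs, ratios to WT of 0.0791 and 0.0458. The log2 fold changes were -2.21 (standard error 0.247, adjusted p = 0.0079 from limma) and -2.40 (standard error 0.198, adjusted p = 0.00296), which understate the ratio because 0.1 is added to each value. With voom on the recovered fragments they were -3.79 and -4.44, and with 1 added in place of 0.1 they were -0.58 and -0.61, the former under the 1.5-fold limit. *Slit3* passed the filter on low values only through its WT libraries, so it had to differ once tested, and it is not tested without either WT library. With no filter it was called without each library in turn, at -2.05 to -2.56, with adjusted p from 0.00652 to 0.0647.

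The other SLIT ligands did not pass the test. *Slit2*, the dominant one, was at 6.91 and 7.11 FPKM in WT and between 5.17 and 7.09 in the KO libraries, with log2 fold changes of -0.24 (adjusted p = 0.239 from limma) and -0.12 (adjusted p = 0.479). Because *Slit2* carries most of the SLIT RNA, the summed SLIT level was 7.67 and 7.68 FPKM in WT and 5.29 to 7.29 FPKM in the KO libraries. *Robo1*, the main SLIT receptor in these cells, was at 5.91 and 5.65 FPKM in WT and at 4.40 to 6.46 in the KO libraries, with log2 fold changes of -0.22 (adjusted p = 0.316 from limma) and -0.02 (adjusted p = 0.936).

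*Ntn1* (ENSMUSG00000020902, chr11:68022866-68214325), the NETRIN that draws commissural axons to the midline, was lower in both knockouts, at 0.555 of the WT mean in *Dnttip1* KO and 0.503 in *Elmsan1* KO mESCs. It was at 25.6 and 25.2 FPKM in WT, 15.6 and 16.3 in D2A7, 12.2 and 12.3 in D1E6, 12.2 and 12.6 in E2E8, and 12.9 and 13.5 in E2G7. The groups did not overlap, and D2A7 lay above the other 3 clones. The means were 25.4 ± 0.26 FPKM in WT (SD, n = 2), 14.1 ± 2.14 in *Dnttip1* KO (SD, n = 4) and 12.8 ± 0.551 in *Elmsan1* KO mESCs (SD, n = 4). The log2 fold changes were -0.86 (standard error 0.139, adjusted p = 0.0198 from limma) and -0.99 (standard error 0.0589, adjusted p = 0.00138). *Ntn1* was called in both comparisons under every alternative tried, with adjusted p up to 0.16 and 0.0477 from limma, the highest without WT replicate 1. Since it holds most NETRIN RNA, the summed NETRIN level went from 26.0 and 25.6 FPKM in WT to 12.7 to 17.2 FPKM in the KO libraries.

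Of the NETRIN receptors, *Unc5b* (ENSMUSG00000020099, chr10:60225358-60294329), which mediates repulsion, was higher in 3 of the 4 clones. It was at 8.74 and 8.06 FPKM in WT, 14.1 and 14.2 in D2A7, 14.3 and 14.0 in D1E6, 14.8 and 14.3 in E2G7, and at 8.83 and 9.72 in E2E8. E2E8 lay just above WT and the other 3 clones lay together well above it. In *Dnttip1* KO mESCs the log2 fold change was 0.74 (standard error 0.0551, adjusted p = 0.00362 from limma). In *Elmsan1* KO mESCs, whose clones differed, it was 0.47 (standard error 0.233, adjusted p = 0.25 from limma). *Neo1*, the receptor at the highest level of this pathway, was between 19.2 and 22.5 FPKM in all 10 libraries, with log2 fold changes of -0.04 (adjusted p = 0.624 from limma) and 0.05 (adjusted p = 0.699). *Ntn3* and *Unc5a*, at 0.543 and 0.125 FPKM on average, were not called in either knockout. The panels of values by library show the named genes.

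**Figure D3:**
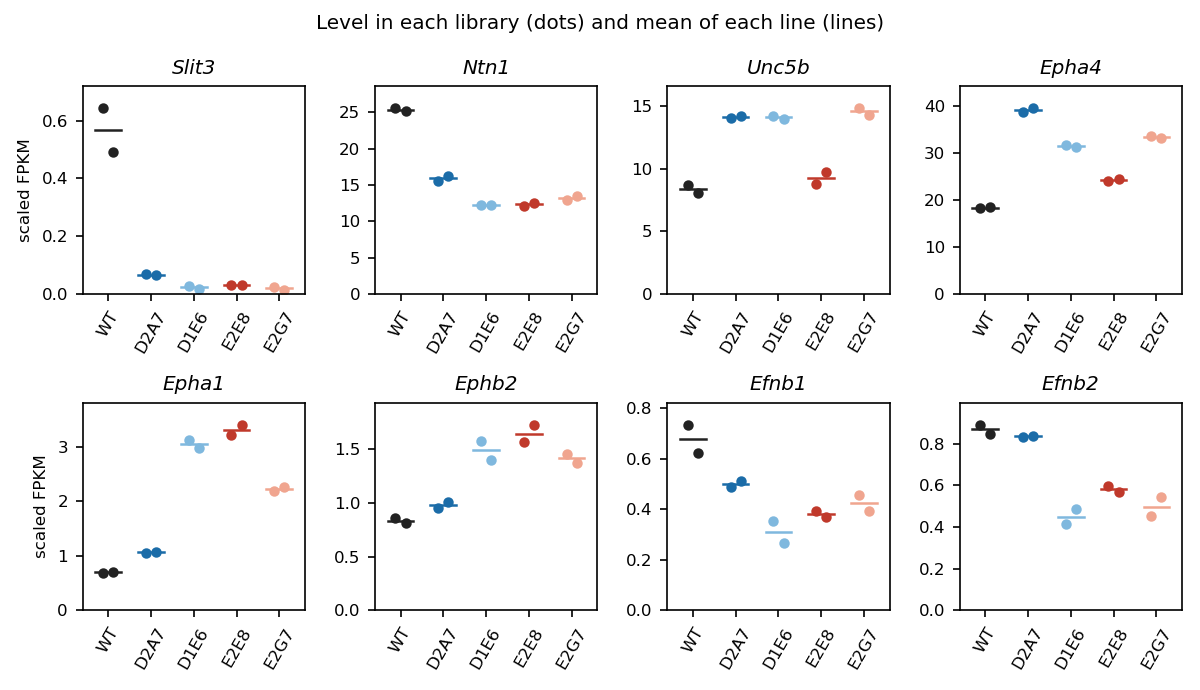
Scaled FPKM (axes from 0) of 8 genes in each library, dots for libraries and horizontal lines for the mean of each line of 2 libraries. *Slit3* and *Ntn1* are lower in all 4 KO clones, *Epha4* is higher in all 4, and *Unc5b* in E2E8 stays near WT.

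Among the Eph receptors, 8 of 12 were tested in each comparison, and *Epha4* (ENSMUSG00000026235, chr1:77363760-77511663), a receptor for ephrins of both classes, was the one called in both knockouts. It was at 18.3 and 18.6 FPKM in WT, 38.9 and 39.6 in D2A7, 31.8 and 31.3 in D1E6, 24.0 and 24.5 in E2E8, and 33.6 and 33.2 in E2G7. All KO libraries were above both WT libraries, with E2E8 the nearest to them. The log2 fold changes were 0.93 (standard error 0.117, adjusted p = 0.0101 from limma) and 0.63 (standard error 0.164, adjusted p = 0.0626). The call in *Elmsan1* KO mESCs was lost without either E2G7 library (0.55 for each) or either WT library (0.61 and 0.64), with the replicate block (adjusted p = 0.127 from limma), and at an adjusted p under 0.05.

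*Epha1* (ENSMUSG00000029859, chr6:42308486-42323267), a receptor for A-class ephrins, was at 0.682 and 0.71 FPKM in WT, 1.06 and 1.07 in D2A7, 3.12 and 2.98 in D1E6, 3.22 and 3.40 in E2E8, and 2.19 and 2.26 in E2G7. D2A7 was at 1.53 times the WT mean, D1E6 at 4.38, E2E8 at 4.75 and E2G7 at 3.19 times, and no KO library overlapped WT. The log2 fold change was 1.82 in *Elmsan1* KO (standard error 0.215, adjusted p = 0.00725 from limma) and 1.27 in *Dnttip1* KO mESCs (standard error 0.511, adjusted p = 0.177). The same 3 clones are those in which genes of chromosome 6 were higher as a whole. With the median of each chromosome set to that of WT, the log2 fold changes of *Epha1* were 1.49 (adjusted p = 0.0117 from limma) and 1.1 (adjusted p = 0.112). Of its exon length, 4.89% overlaps *Zyx* on the opposite strand.

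*Ephb2* (ENSMUSG00000028664, chr4:136203454-136391903), a receptor for B-class ephrins, was at 0.859 and 0.814 FPKM in WT, 0.954 and 1.01 in D2A7, 1.58 and 1.40 in D1E6, 1.57 and 1.73 in E2E8, and 1.46 and 1.37 in E2G7. Again D2A7 was nearest to WT, and no KO library overlapped WT. The log2 fold change was 0.80 in *Elmsan1* KO (standard error 0.136, adjusted p = 0.0187 from limma) and 0.48 in *Dnttip1* KO mESCs (standard error 0.227, adjusted p = 0.231). *Ephb4*, the EphB receptor at the highest level, had an adjusted p of 0.0134 from limma in *Elmsan1* KO mESCs at a log2 fold change of 0.44, under the 1.5-fold limit. *Epha2*, a receptor for A-class ephrins, had log2 fold changes of -0.07 (adjusted p = 0.551 from limma) and -0.38 (adjusted p = 0.138).

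All 8 ephrin ligands were tested and 2 were called, both in *Elmsan1* KO mESCs and both B-class ligands at low levels. Neither had an adjusted p under 0.05. In *Dnttip1* KO mESCs the A-class ligand *Efna3* had an adjusted p of 0.0381 from limma at a log2 fold change of -0.49, under the 1.5-fold limit. *Efnb1* (ENSMUSG00000031217, chrX:96331469-96344330), a ligand of EphB receptors, was at 0.734 and 0.621 FPKM in WT, 0.489 and 0.511 in D2A7, 0.353 and 0.266 in D1E6, 0.392 and 0.368 in E2E8, and 0.457 and 0.392 in E2G7. All KO libraries were below both WT libraries, and the values rest on 58 to 127 fragments per library. Its log2 fold changes were -0.63 in *Elmsan1* KO (standard error 0.162, adjusted p = 0.0599 from limma) and -0.65 in *Dnttip1* KO mESCs (standard error 0.255, adjusted p = 0.168).

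*Efnb2* (ENSMUSG00000001300, chr8:8617434-8661239), a ligand of EphB receptors that marks arteries, was at 0.891 and 0.845 FPKM in WT, 0.833 and 0.838 in D2A7, 0.413 and 0.486 in D1E6, 0.595 and 0.567 in E2E8, and 0.451 and 0.546 in E2G7. D2A7 lay just under WT and the other 3 clones lay lower. Its log2 fold changes were -0.60 in *Elmsan1* KO (standard error 0.158, adjusted p = 0.0634 from limma) and -0.43 in *Dnttip1* KO mESCs (standard error 0.299, adjusted p = 0.4). *Efnb2* lies on chromosome 8, whose genes were higher as a whole, and with each chromosome's median set to that of WT the values were -0.95 (adjusted p = 0.0255 from limma) and -0.80 (adjusted p = 0.164). The calls of *Efnb1* and *Efnb2* were each lost when any 1 of the 6 libraries was left out, with log2 fold changes from -0.73 to -0.52 for *Efnb1* and from -0.64 to -0.53 for *Efnb2*.

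KO and WT libraries did not overlap for 14 of the 25 tested genes in *Dnttip1* KO mESCs, 9 lower and 5 higher, beside 20.8% and 21.1% of all genes tested. In *Elmsan1* KO mESCs this held for 6 lower and 6 higher, beside 21.8% and 21.3%. *Slit3* in both comparisons and *Unc5a* in *Elmsan1* KO mESCs passed the filter on low values only through WT. They therefore had to count among the lower genes. The libraries of a knockout come from 2 clones and are not independent, and with a correlation within clones estimated by limma (0.704 and 0.768), the adjusted p of *Slit3* was 0.0992 and 0.0967, that of *Ntn1* 0.0846 and 0.0286, that of *Epha4* 0.0554 and 0.194, and that of *Unc5b* in *Dnttip1* KO mESCs 0.0581. In *Elmsan1* KO mESCs it was 0.0562 for *Epha1* and 0.243 for *Ephb2*.

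Compared directly, 0 of 24 tested genes were called between *Dnttip1* KO and *Elmsan1* KO mESCs, beside 1.52% of all 17588 genes, 0.415% lower and 1.11% higher in *Dnttip1* KO. The libraries of the knockouts did not overlap for 1 gene lower and 1 higher, *Ephb4* and *Epha2*, beside 4.05% and 5.43% of all genes. The tested members with an unadjusted p under 0.05 each had an adjusted p of 0.296 from limma. They were *Efna1* at a log2 fold change of -0.63, *Epha2* at 0.31 and *Ephb4* at -0.25. A negative value is lower in *Dnttip1* KO. The share of all genes under 0.05 was not counted. With voom the number called was also 0. *Slit3* was too low in both knockouts to be tested. *Ntn1* differed by 0.13 (standard error 0.104, adjusted p = 0.53 from limma) and *Epha4* by 0.30 (standard error 0.139, adjusted p = 0.325).

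Clones of the same knockout differed from each other in 9 of these genes, ligands and receptors of the ephrin and NETRIN pathways. Between D2A7 and D1E6, 5 of 24 tested genes (20.8%) were called, beside 12.9% of all 16991 genes. *Unc5a* is among the 5 although it passed the filter on low values only through its D2A7 libraries, so its direction was fixed once it was tested. Of all genes, 9.20% were called higher and 3.73% lower in D2A7. Between E2E8 and E2G7, 4 of 23 (17.4%) were called, beside 13.7% of 16723 genes. Of all genes, 10.5% were called higher and 3.27% lower in E2E8. No test compared the members' shares with those of all genes. The tests between clones set 2 libraries of 1 clone against 2 of another and so measure the spread between libraries, not between independent clones. The clones did not overlap for 9 lower and 12 higher genes in D2A7, beside 32.2% and 41.3% of all genes, and for 6 lower and 15 higher in E2E8, beside 33.1% and 44.5%.

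D2A7 differed from D1E6 in *Epha1* (log2 fold change -1.44, adjusted p = 0.000582 from limma) and *Ephb6* (-0.63, adjusted p = 0.00208), both lower in D2A7, the clone without the shift of chromosome 6. With each chromosome's median set to that of WT, *Epha1* was still called (-0.93, adjusted p = 0.00193 from limma) and *Ephb6* was not (-0.13, adjusted p = 0.161). *Ephb6*, an Eph receptor whose kinase domain is inactive, was at 2.46 and 2.55 FPKM in D2A7, 3.94 and 3.92 in D1E6, and 3.83 and 3.16 in WT. Higher in D2A7 were *Efnb2* (0.77, adjusted p = 0.0106 from limma), *Ntn3* (0.60, adjusted p = 0.0142) and *Unc5a* (1.19, adjusted p = 0.0114). *Ntn3* was at 0.815 and 0.824 FPKM in D2A7 and 0.506 and 0.505 in D1E6. It shares 89 bases, 1.82% of its exon length, with *Tbc1d24* on the same strand, which averaged 7.41 FPKM. *Unc5a*, a repulsive NETRIN receptor, was at 0.297 and 0.320 FPKM in D2A7 and between 0.0346 and 0.113 FPKM in the other 8 libraries. D2A7 was therefore the highest line for both genes. *Unc5a* passed the filter on low values only through its D2A7 libraries, so it had to be higher once tested. It was not tested without either D2A7 library. The calls of these 3 higher genes depend on each library: 0 of them were called without either D2A7 library, *Unc5a* alone without D1E6 replicate 1, and *Efnb2* alone without D1E6 replicate 2.

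E2E8 was higher than E2G7 in the neighbouring ligand genes *Efna1* (0.83, adjusted p = 0.00097 from limma) and *Efna3* (0.88, adjusted p = 0.000546) and in the receptor *Epha7* (0.78, adjusted p = 0.00392). *Efna1*, *Efna3* and *Efna4* lie side by side on chromosome 3, between 89075655 and 89141950 of NCBIM37, all on the - strand. Of the exon lengths of *Efna3* and *Efna4*, 14.1% and 10.5% overlap genes on the opposite strand that averaged 0.113 and 0.261 FPKM. *Efna1* was at 3.18 and 3.15 FPKM in E2E8 and 1.19 to 1.80 in the other 8 libraries. *Efna3* was at 13.4 and 13.7 FPKM in E2E8, 10.4 and 9.50 in WT and 6.34 to 7.74 in the other clones. *Efna4*, the other gene of the cluster, was at 18.1 and 18.5 FPKM in E2E8 and 16.4 and 18.0 in E2G7 (0.09, adjusted p = 0.21 from limma) and did not pass the test. *Unc5b* was lower in E2E8 than in E2G7 (-0.65, adjusted p = 0.00151 from limma), and without E2E8 replicate 1 this was -0.58, under the 1.5-fold limit. The plot of differences from WT by clone shows the genes called between clones.

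**Figure D4:**
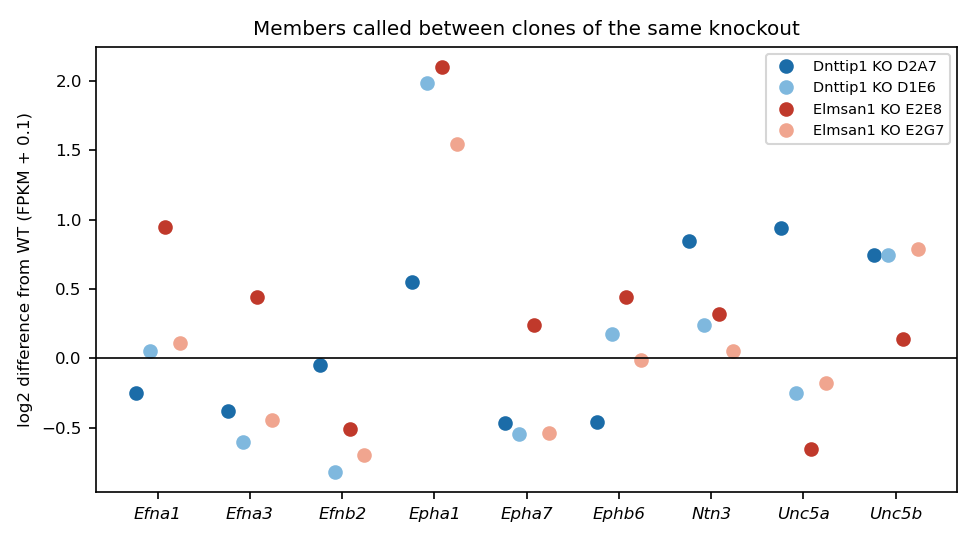
Log2 difference from the WT mean (FPKM + 0.1) in each of the 4 KO clones for the 9 genes called between clones of the same knockout, 1 dot per clone from 2 libraries. E2E8 stands apart for *Efna1*, *Efna3*, *Epha7* and *Unc5b*, and D2A7 for *Epha1*, *Efnb2*, *Ntn3* and *Unc5a*.

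Other genes of these pathways were taken from lists of 63 partners and effectors, of which 56 were tested. In *Dnttip1* KO mESCs 2 were called lower and 3 higher, and in *Elmsan1* KO mESCs 1 lower and 2 higher, with medians of -0.01 and -0.05 on the log2 scale. These are 8.93% and 5.36% of the partners tested, near the 6.51% and 6.43% of all genes called, so the counts set the lists apart in neither knockout. Among the 26 Eph and ephrin effectors, *Rgs3* (1.09, adjusted p = 0.0296 from limma) and *Ptpn13* (0.86, adjusted p = 0.0166) were called higher in *Dnttip1* KO mESCs. *Grb7* was called higher in *Elmsan1* KO mESCs (0.63, adjusted p = 0.0149 from limma). In the other knockout, where they were not called, *Rgs3* was at 1.15 (adjusted p = 0.16 from limma), *Ptpn13* at 0.21 (0.788) and *Grb7* at 0.38 (0.375). Among 17 tested SLIT and ROBO partners, *Enah*, an actin regulator of the growth cone, was at 75.6 FPKM on average in WT, 44.1 in *Dnttip1* KO and 35.1 in *Elmsan1* KO mESCs, with log2 fold changes of -0.79 (adjusted p = 0.0227 from limma) and -1.12 (adjusted p = 0.0117). *Myo9b*, a myosin that inactivates RhoA and binds ROBO1, was at 15.1, 23.2 and 24.1 FPKM, with log2 fold changes of 0.62 (adjusted p = 0.00443 from limma) and 0.68 (adjusted p = 0.00287). *Gpc1*, a heparan sulfate proteoglycan, was called lower in *Dnttip1* KO mESCs (-1.28, adjusted p = 0.0051 from limma). In *Elmsan1* KO mESCs *Gpc1* was at -0.78 (adjusted p = 0.0958 from limma) and was not called.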

How the data were processed

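Total RNA of 10 mESC libraries was sequenced as stranded paired reads. Per the labels and methods, the authors mapped reads on NCBIM37, used HTSeq for counts by gene and deposited FPKM values, with lengths and library totals not given in the sources used here. Multiplied by GENCODE vM1 exon lengths, 98.3% to 98.5% of low values were whole fragments (tolerance 0.05), which gave the depth. The methods name GENCODE vM20, but the identifiers match vM1.

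Libraries were divided by their median ratio to the geometric mean over 11270 genes with at least 1 FPKM throughout. Tests used limma 3.58.1 in R 4.3.3, two-sided, with a variance trend and Benjamini-Hochberg adjustment. Clones are named by code, since sources number them differently. The study calls its duplicates biological replicates. Whether they came from separate cultures is not given in the sources used here, and p-values measure the spread between these libraries. Libraries of a line differed beyond sampling noise and all were counted.

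In simulated data for *Dnttip1* KO against WT, 199 of 200 genes changed by 1.5 (log2) among 17434 were called, with 44 unchanged genes. Smaller changes, such as those of most members, were not simulated. Differences between clones of a knockout were not simulated either, so the 44 leave out calls that these bring. Members and lists were chosen with earlier results of these data known. Values by library are given for members called between genotypes that reach 0.5 FPKM in a line, and for *Slit3*, *Ntn1*, *Robo3* and *Unc5b*; *Enah* and *Myo9b* were called in both knockouts, and other partners, and members called between clones, were named after their values were seen. Alternatives changed the pseudocount, filter, scaling, threshold and libraries, the correlation within clones, the replicate block, the centring of chromosomes, and the unit (voom on fragments). Python 3.11.15 and matplotlib 3.10.9 were also used. A further neural marker is not reported here.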

Additional observations from a re-analysis of the deposited data

Results flagged for a closer look

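Clones of the same knockout differed in 9 results by a direct test. These were 5 of 24 tested members (20.8%) between D2A7 and D1E6, beside 12.9% of all genes. Between E2E8 and E2G7 they were 4 of 23 (17.4%), beside 13.7%. The shares are descriptions with no test. Between D2A7 and D1E6 the log2 differences were 0.77 for *Efnb2*, -1.44 for *Epha1*, -0.63 for *Ephb6*, 0.60 for *Ntn3* and 1.19 for *Unc5a*, with positive values higher in D2A7. *Unc5a* passed the filter on low values only through D2A7. With chromosomes centred, *Ephb6* was at -0.13 and *Ntn3* at 0.58, both no longer called. Between E2E8 and E2G7 they were 0.83 for *Efna1*, 0.88 for *Efna3*, 0.78 for *Epha7* and -0.65 for *Unc5b*, with positive values higher in E2E8.

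Of 30 groups of 4 KO libraries checked over 15 genes, 1 had a library far from the others: for *Ntn3* in *Elmsan1* KO, the gap of E2E8 replicate 2 (0.658 FPKM) to the next library took 0.872 of the range, the others being at 0.416 to 0.447 FPKM. Chance alone marks about 1 in 20 groups of 4 independent values. The libraries of a knockout come from 2 clones and are not independent, so the rate for these groups is not known.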

How the results depend on the processing

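No member called in the main fit reversed its direction under any alternative. In *Dnttip1* KO mESCs the number of genes called lower was 1 in place of 2 with a pseudocount of 1 and with genes of at least 1 FPKM only, and 1 to 2 with single libraries left out. In *Elmsan1* KO mESCs it was 2 in place of 4 with a pseudocount of 1, with correlation within clones, with the replicate block and at an adjusted p under 0.05, 1 with genes of at least 1 FPKM only, and 1 to 2 with single libraries left out. *Slit3* and *Ntn1* were those 2, and *Ntn1* was the 1. The replicate numbers did not pair the libraries (correlations from -0.142 to 0.2), and the block left 2 genes lower and 2 higher (*Epha1* and *Ephb2*) in *Elmsan1* KO mESCs. Between the knockouts, 1 gene was called lower (*Efna1*) and 1 higher (*Unc5a*) in place of 0 with all 10 libraries in 1 fit. Between D2A7 and D1E6, a pseudocount of 1 left 1 gene lower and 0 higher, genes of at least 1 FPKM left 0 higher, and single libraries left out gave 2 to 4 lower and 0 to 1 higher. Between E2E8 and E2G7 the latter gave 0 to 1 lower and 3 to 4 higher. Over all genes, lower and higher, the counts were 566 and 569 in *Dnttip1* KO against WT, 634 and 472 in *Elmsan1* KO against WT, 73 and 195 between the knockouts, 634 and 1564 between D2A7 and D1E6, and 547 and 1752 between E2E8 and E2G7. A pseudocount of 1 gave 289 and 251, 298 and 227, 19 and 60, 310 and 726, and 230 and 616 in that order, and genes of at least 1 FPKM gave 289 and 375, 276 and 327, 37 and 75, 481 and 903, and 302 and 952. For the 3 comparisons between genotypes, correlation within clones gave 255 and 283, 253 and 233, and 17 and 37, and all 10 libraries in 1 fit gave 923 and 1239, 950 and 1009, and 403 and 865. Without WT replicate 1 the WT comparisons gave 245 and 354, and 300 and 322, and without WT replicate 2, 266 and 422, and 317 and 365. Between the knockouts, the replicate block gave 45 and 126, an adjusted p under 0.05 gave 1 and 3, and single libraries left out gave 24 to 148 lower and 70 to 404 higher. A clone or WT left with 1 library was assumed to vary like the other libraries of its fit. The WT libraries are the shallowest, which limits genes under 0.1 FPKM most. The fits for *Slit3* with no filter and a library left out were added after the data were seen. The causes of these changes were not tested.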
